A study of Mus musculus with 26 samples.

Results

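The 41 genes described here encode creatine kinases, enzymes of glycogen, the enzymes of glycolysis, glucose and lactate transporters and enzymes of adenine nucleotides, with Fbp2, Pdk4 and Mb (myoglobin) beside them. They were chosen by name and role, with earlier results of these data known, and are 41 of the 55341 genes in each count file. Of these, 12 are the muscle form of their family or a gene used mainly by muscle, 12 are a more general form, and 17 serve both settings. RNA-seq read counts were deposited for 26 libraries of C2C12 cells, mouse myoblasts that stop dividing and form myotubes once differentiation medium (DM) replaces growth medium. Cells received a control siRNA (siCtrl) or 1 of 2 siRNAs against the methyltransferase SMYD3 (siSMYD3#1, siSMYD3#2) before the change of medium, and were collected at 0 h or after 24 h in DM, with 3 libraries per siRNA and time. A second experiment compared SMYD3 CL5, a single clone that carries HA-FLAG-tagged SMYD3 from a retrovirus, with cells that carry the empty vector (pREV), at the same times and with 2 libraries each. Every siRNA group held 2 libraries extracted with NucleoSpin columns and 1 extracted with TRIzol from cells of an earlier passage, so extraction and passage cannot be told apart, whereas all 8 libraries of the clone and its vector were TRIzol. The study's methods call the replicates biological and the labels do not name separate cultures, so p-values measure the spread between these libraries.

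Creatine kinase moves phosphate between ATP and creatine and so buffers ATP where it is used quickly, as in a contracting fibre. Glycogen phosphorylase releases glucose units from stored glycogen, phosphorylase kinase switches it on, and glycolysis turns those units into pyruvate, which lactate dehydrogenase can reduce to lactate for export. Several of these steps have one enzyme form that adult muscle uses and another that most cells use: Ckm against Ckb, Pygm against Pygb and Pygl, Pfkm against Pfkl and Pfkp, Pgam2 against Pgam1, and Eno3 against Eno1 and Eno2. During myogenesis the muscle forms of creatine kinase and phosphoglycerate mutase are known to replace or join the general ones, under MyoD-family factors that bind E-boxes and under MEF2 factors.

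Total counts ran from 14315193 to 60398170 in the siRNA libraries and from 21124675 to 67853386 in the clone and vector libraries. Values are given as CPM, the usual count scaled to the size of the library, and for 3 libraries in the order first NucleoSpin, second NucleoSpin, TRIzol. A difference was called at an adjusted p under 0.01 in edgeR's quasi-likelihood test over all genes tested, with extraction as a term in the siRNA experiment. Smyd3 itself stood at 17.8, 19.9 and 20.7 CPM in siCtrl at 24 h, at 15.2, 15.1 and 19.3 in the libraries labelled siSMYD3#1, and at 5.46, 5.37 and 9.65 in siSMYD3#2. It fell in siSMYD3#2 (log2 fold change −1.51, adjusted p = 5.06e-05) and did not pass the test in the libraries labelled siSMYD3#1 (−0.24, adjusted p = 0.414), so every direction given for siSMYD3#1 rests on the label and not on the Smyd3 count. In SMYD3 CL5 at 24 h Smyd3 stood at 24.3 and 21 CPM, against 17.1 and 18.2 with the vector (log2 fold change 0.36, adjusted p = 0.671). The study itself followed the knockdown by qPCR and western blot and the clone's tagged protein by western blot, which these counts do not measure. All 5 myoblast and myotube markers were present (summed level 216 to 2130 CPM per library), while the summed adipocyte, osteoblast, immune, endothelial and hepatocyte lists reached at most 6.75 CPM. The neuron list reached 119 CPM, but it includes Eno2, one of the genes described here. Its members Snap25 and Rbfox3 never exceeded 3 counts, whereas Syt1 did.

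Levels differed over several orders of magnitude. In siCtrl at 0 h, per kb of exon, the pyruvate kinase gene Pkm led with a mean of 678 CPM per kb, followed by phosphoglycerate kinase Pgk1 with 491, lactate dehydrogenase Ldha with 489, triosephosphate isomerase Tpi1 with 387 and aldolase Aldoa with 386. On this scale the muscle enolase Eno3, at 310.5 CPM per kb, was already close to Eno1 in myoblasts. Eno1 was at 281 by its own counts, which leave out reads on near-identical copies of Eno1. The scale divides by all annotated exon bases of a gene, 5379 for Eno1 and 1739 for Eno3. In CPM without that division Eno1 was higher, with a mean of 1512 against 539.9 for Eno3. The 3 phosphofructokinase genes stood at 24.1 (Pfkm), 31.2 (Pfkl) and 11.6 (Pfkp) CPM per kb. At the other end, Ckm stood at 0.0143 CPM per kb and Pgam2 at 1.02.

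A group of the genes had few or no counts. Pygl, the liver phosphorylase, had 0 counts in all 26 libraries, and Pygm, the muscle phosphorylase whose loss causes McArdle disease, had 1 count in all. The mitochondrial creatine kinases Ckmt2 and Ckmt1 had 9 and 45 counts over all libraries, the muscle fructose bisphosphatase Fbp2 26, and the muscle AMP deaminase Ampd1 69. Pygb, the brain form of phosphorylase, carried nearly all the phosphorylase counts in every library, with 107 ± 7.71 CPM in siCtrl at 0 h and 95.8 ± 3.27 at 24 h (SD, n = 3). A count of 0 allows up to 3 counts in a library, a floor that covers counting error only. Pygl, Pygm and Ckmt2 never exceeded it and were not detectable at this depth. Ckmt1 exceeded it in 3 libraries and Ampd1 in 6, with at most 9 and 8 counts, and Fbp2 had 15 counts in 1 library of the vector at 24 h. After the low-count filter 35 of the 41 genes were tested in the siRNA experiment, all but Ckmt1, Ckmt2, Pygm, Pygl, Ampd1 and Fbp2. In the clone experiment 33 were tested, since the glucose transporters Slc2a3 and Slc2a4 also dropped out.

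The sequences before the start sites are shown for Ckm, Ckb and Pgam2, the creatine kinase and mutase genes called in siCtrl over time, and for Eno3, a muscle form that was not called. They are RefSeq windows of 250 bases on GRCm38.p6, written in the direction of transcription, with the E-box CANNTG and the MEF2 consensus in capitals. The Ckm window, chr7:19410844-19411024 on the plus strand, is printed without the 69 bases next to the start, which an exon of another Ckm transcript covers. The Pgam2 window is chr11:5803797-5804046 (minus strand), that of Ckb chr12:111672339-111672588 (minus strand) and that of Eno3 chr11:70656926-70657175 (plus strand).
Ckm: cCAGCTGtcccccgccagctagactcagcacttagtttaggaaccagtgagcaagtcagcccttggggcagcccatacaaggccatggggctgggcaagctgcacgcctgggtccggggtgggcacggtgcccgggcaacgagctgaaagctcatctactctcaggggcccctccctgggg
Pgam2: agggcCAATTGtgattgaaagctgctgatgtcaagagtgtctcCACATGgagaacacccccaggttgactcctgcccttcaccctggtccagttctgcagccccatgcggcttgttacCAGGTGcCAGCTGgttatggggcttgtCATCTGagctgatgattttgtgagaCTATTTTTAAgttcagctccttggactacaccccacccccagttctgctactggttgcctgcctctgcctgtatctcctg
Ckb: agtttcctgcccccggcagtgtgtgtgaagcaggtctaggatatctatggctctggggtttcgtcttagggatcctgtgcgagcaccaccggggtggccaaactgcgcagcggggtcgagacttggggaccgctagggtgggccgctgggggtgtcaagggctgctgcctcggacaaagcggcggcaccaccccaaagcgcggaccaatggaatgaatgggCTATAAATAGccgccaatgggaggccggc
Eno3: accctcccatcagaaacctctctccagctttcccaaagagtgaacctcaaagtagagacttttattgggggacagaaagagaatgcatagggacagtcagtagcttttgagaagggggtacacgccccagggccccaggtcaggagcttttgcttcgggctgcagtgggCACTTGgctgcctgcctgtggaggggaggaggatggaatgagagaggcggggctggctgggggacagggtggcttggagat
The Ckm window held 1 E-box, whose first base lies 249 bases before the start. Pgam2 held 5 E-boxes, at 245, 207, 132, 125 and 105 bases before the start, and a MEF2 match at 80. Ckb held no CANNTG and a MEF2 match at 29 bases before the start, which overlaps the letters TATAAA. Eno3 held 1 E-box at 81 bases.

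Windows were found for 38 of the 41 genes (57 windows, as some genes have several starts), not for Ampd1, Slc2a3 and Slc2a4. The letters CANNTG on either strand are common: 66.2% of all 32851 windows held them, and 64.9% of the windows of these genes. All 10 matched muscle forms had at least 1 such E-box in a window, against 69.3% of all 27025 genes. The E-box CAGCTG, a subset of CANNTG, was found in 7 of the 10 muscle forms (Ckm, Ckmt2, Fbp2, Mb, Pgam2, Phka1 and Pygm) and in 14.7% of all genes. Of those 7 muscle forms, Ckmt2, Fbp2 and Pygm were at or near 0 counts in these cells. The MEF2 consensus was in 2 of 38 matched genes (Pgam2 and Ckb) and in 3.42% of all genes. The letters ACGTG, the core of the hypoxia response element, were in 16 of 38 (42.1%) and in 18.5% of all genes. A match is a description of these letters and shows neither binding nor its absence.

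The comparison of siCtrl at 24 h with 0 h asks which of these genes change as myoblasts begin to differentiate. Ckm was the gene that changed most. It had 0.0732, 0.0514 and 0 CPM at 0 h, which is 2, 3 and 0 reads, and 41, 48.8 and 19.0 CPM at 24 h. With the libraries of each time pooled, 2221 reads against 5, the level was 753-fold higher, with an exact 95% interval of 322.2 to 2321 that covers counting error only (adjusted p = 2.06e-11). Mb, the oxygen carrier of muscle, followed the same course at a much lower level, with at most 0.0732 CPM at 0 h and 2.50, 2.16 and 0.528 CPM at 24 h, a ratio of 44.5 (16.9 to 166, adjusted p = 2.2e-06). Pgam2, the muscle phosphoglycerate mutase, went from 0.988, 0.892 and 0.699 CPM to 5.08, 6.40 and 3.52 CPM (log2 fold change 2.51 ± 0.316 SE, adjusted p = 4.9e-06). For all 3 genes the 24 h libraries lay above every 0 h library in both extractions.

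**Figure D1:**
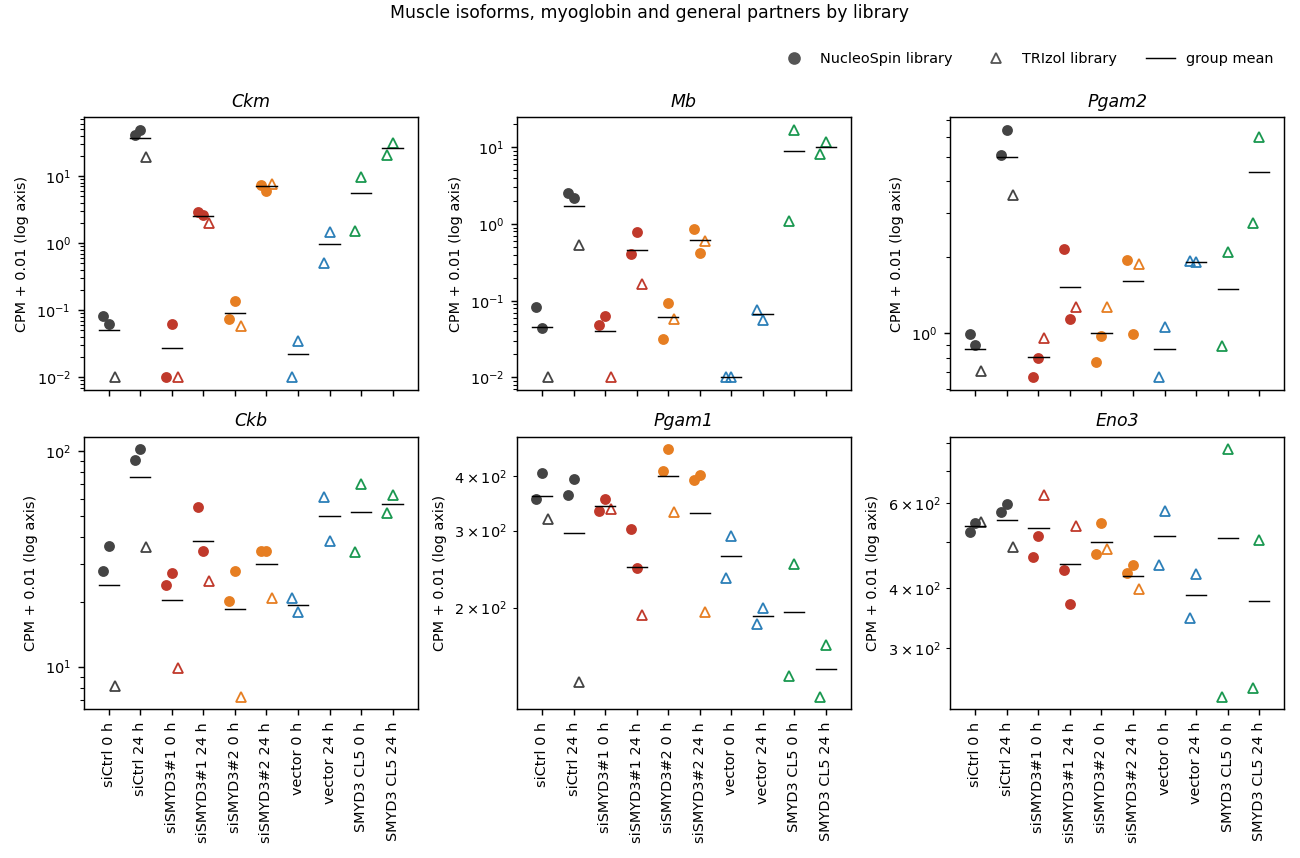
CPM (plus 0.01, log axis) of Ckm, Mb, Pgam2, Ckb, Pgam1 and Eno3 in every library, by group. Filled circles are NucleoSpin libraries, open triangles TRIzol libraries and the short line the group mean. In the siRNA groups Ckm and Mb rise from near 0 by 24 h and Ckm reaches lower levels with both SMYD3 siRNAs, whereas Eno3 stays between 238 and 778 CPM throughout.

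The general creatine kinase rose as well. Ckb, the brain form, stood at 27.7, 36.3 and 8.10 CPM at 0 h and at 90.8, 101.9 and 35.7 CPM at 24 h (log2 fold change 1.72 ± 0.242 SE, adjusted p = 4.58e-05). Within each extraction its 24 h libraries were above its 0 h libraries, although the TRIzol library at 24 h lay just below the second NucleoSpin library at 0 h. The other general forms that rose were the neuronal enolase Eno2, the glucose transporter Slc2a3 (GLUT3) and the AMP deaminase Ampd3. Ampd3 went from 13.5, 13.8 and 17.7 CPM to 24.5, 27.4 and 21.5 CPM (log2 fold change 0.70, adjusted p = 0.0011). Eno2 and Slc2a3 moved mainly in the NucleoSpin libraries. Eno2 was at 25.0 and 25.4 CPM there at 0 h and 114.9 and 118.7 at 24 h, but at 8.06 and 11.6 CPM with TRIzol (log2 fold change 1.80, adjusted p = 0.00203). Slc2a3 went from 1.21 and 1.03 to 5.13 and 7.84 CPM with NucleoSpin, and stood at 0.442 and 0.493 CPM with TRIzol (2.07, adjusted p = 0.0006).

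Of the genes that serve both settings, Phkb, the regulatory beta subunit of phosphorylase kinase, rose slightly, from 42.3, 38.0 and 41.1 to 46.8, 50.1 and 59.5 CPM (log2 fold change 0.36, adjusted p = 0.00599). Pdk4, which phosphorylates pyruvate dehydrogenase and so restrains the use of pyruvate in mitochondria, fell from 38.5, 39.1 and 121.3 CPM to 13.7, 15.2 and 59.6 (−1.27, adjusted p = 6.07e-05). The lactate transporter Slc16a1 (MCT1) fell from 160.9, 161.1 and 129.1 to 130.7, 139.3 and 80.1 CPM (−0.40, adjusted p = 0.00763). Both genes were lower at 24 h within each extraction. With the replicate block, edgeR no longer called Slc16a1 (adjusted p = 0.0107). Phkb missed the threshold under 7 of 13 alternatives (highest adjusted p = 0.133) and Slc16a1 under 6 (0.371).

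In all, 10 of the 35 genes tested were called (28.6%), 8 up and 2 down, and 29.4% of all 15820 genes tested were called (14.6% called up), so the overall share is that of the background. Of the 8 muscle forms tested 3 rose and all 8 had an estimate above 0 (median 0.69 on the log2 scale). Of the 10 general forms 4 rose and 7 had an estimate above 0. Of the 17 others 1 rose and 2 fell, and 9 were above 0. Among the 9 genes of upper glycolysis, from hexokinase to triosephosphate isomerase, the smallest adjusted p was that of Aldoc, the brain aldolase (0.0254). Of the 10 genes of lower glycolysis Eno2 and Pgam2 were called. The main enzymes by level were not called. Pkm had 2977, 3605 and 3592 CPM at 0 h and 3071, 3176 and 2274 at 24 h (−0.26, adjusted p = 0.163). Eno3 had 523.1, 547.6 and 548.9 CPM and then 576.9, 599.4 and 486.2 (0.04, adjusted p = 0.82).

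The remaining genes had values that did not pass the test in siCtrl over time or against siCtrl at 24 h. Among the subunits of phosphorylase kinase, the muscle regulatory subunit Phka1 was at 34.1, 35.5 and 36.5 CPM in siCtrl at 0 h and 35.4, 41.4 and 43.5 at 24 h, and at 35.3 to 46.7 CPM with both SMYD3 siRNAs. The muscle catalytic subunit Phkg1 was far lower, between 0.327 and 0.387 CPM in siCtrl at 24 h. RNA of Phka1 and Phkg1 thus stood at very unequal levels. Phkg2, another phosphorylase kinase gene, is in the wider pathway list described below, and its level is not given here. It was not called in siCtrl over time in edgeR's test (0.06, adjusted p = 0.729). Gys1, which builds glycogen, went from 60.4 and 64.7 to 111.1 and 108.1 CPM in the NucleoSpin libraries of siCtrl and from 69.9 to 63.1 with TRIzol (0.50, adjusted p = 0.044). Slc2a1 (GLUT1), the glucose transporter of most dividing cells, was at 412.5, 444.9 and 69.7 CPM in siCtrl at 24 h. Slc2a4 (GLUT4), the insulin-responsive transporter of muscle, was at 0.351, 0.522 and 0.633 CPM, so that GLUT1 was the main glucose transporter gene by counts in each library. Hk1, the hexokinase of most tissues, was at 310.5, 305.8 and 192.4 CPM in siCtrl at 24 h, and Gpi1, which interconverts glucose and fructose phosphates, at 549.2, 561.8 and 415.9. Pfkl and Pfkp, the liver and platelet phosphofructokinases, were at 312.6 to 328.8 CPM with NucleoSpin and at 77 and 92.9 CPM with TRIzol. In Hk1, Gpi1, Pfkl and Pfkp the TRIzol library was the lowest of the group.

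**Figure D2:**
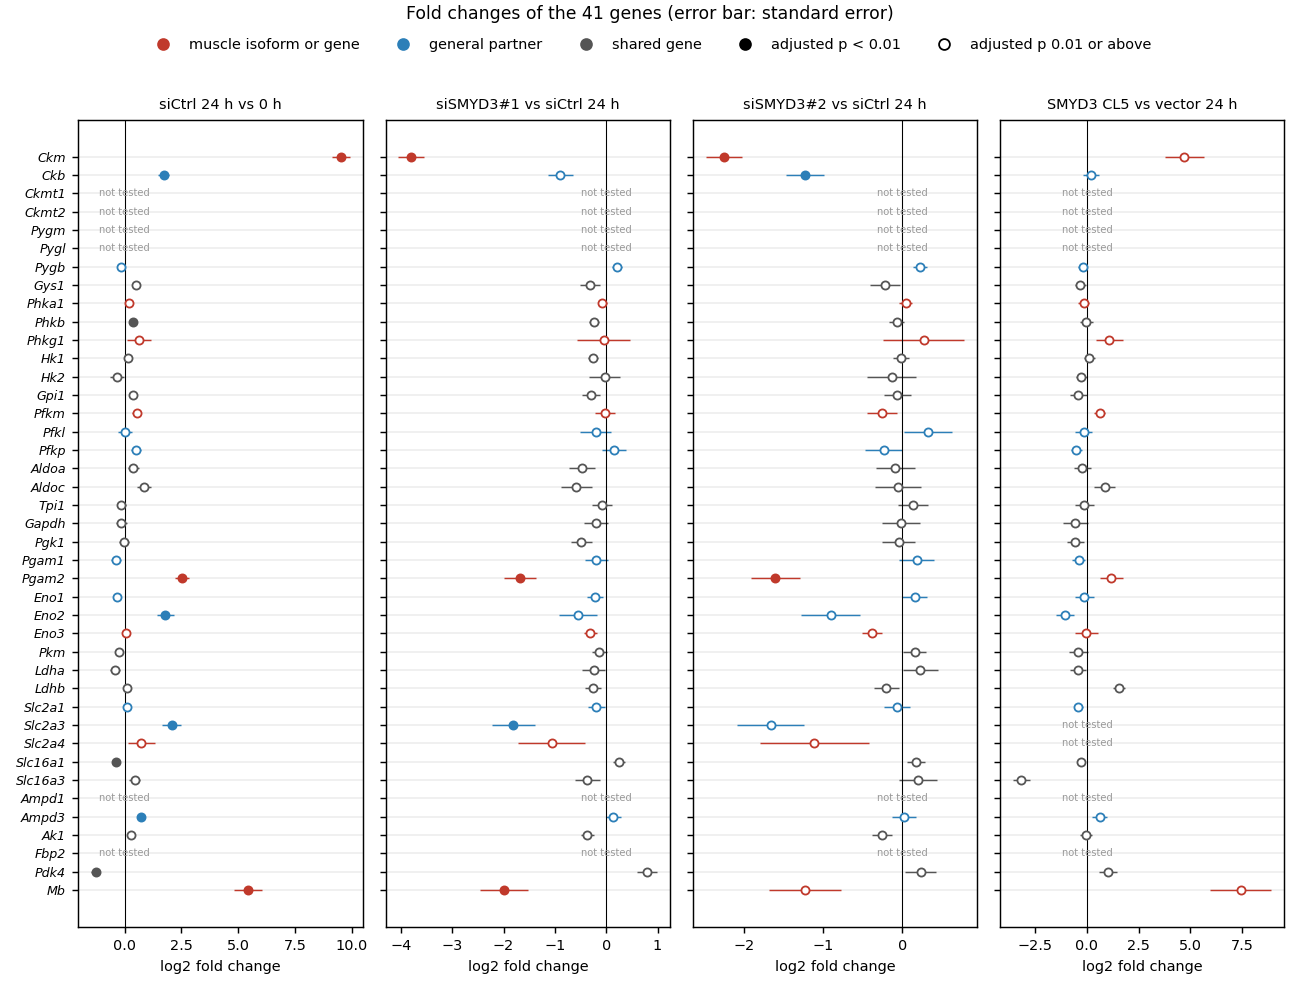
Log2 fold change of each of the 41 genes in 4 comparisons, ordered by role, with the standard error as a bar. Filled symbols passed an adjusted p under 0.01, and genes that were not tested are marked so. Ckm has the most extreme value in the siRNA panels and Mb in the panel of the clone, and the panel of SMYD3 CL5 against the vector holds no filled symbol.

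The libraries of both SMYD3 siRNAs also gained Ckm between 0 h and 24 h. It reached 2.90, 2.62 and 1.96 CPM in the libraries labelled siSMYD3#1, from 1 read in all at 0 h, a ratio of 181 (exact 95% interval 32.1 to 7184). In siSMYD3#2 it reached 7.34, 6.06 and 7.57 CPM from 7 reads in all, a ratio of 91.1 (43.8 to 228). In the libraries labelled siSMYD3#1, 6 genes were called over time, 4 up (Ckm, Mb, Eno2 and Ckb) and 2 down (Pdk4 and Eno1), against 25.4% of all genes. With the replicate block, edgeR no longer called Eno2 there (adjusted p = 0.0138). In siSMYD3#2 5 genes were called, 4 up (Ckm, Mb, Ampd3 and Phkb) and 1 down (Pdk4), against 19.0% of all genes. Pgam2 was called in siCtrl, but not in these groups, where it stood at 1.51 ± 0.549 CPM and 1.6 ± 0.538 CPM at 24 h (SD, n = 3).

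Set against siCtrl at 24 h, Ckm was the gene that differed most with both siRNAs. The highest library labelled siSMYD3#1 had 2.90 CPM and the lowest siCtrl library 19.0, and the mean was 13.9-fold lower in the fit (log2 fold change −3.80 ± 0.253 SE, adjusted p = 7.05e-08). In siSMYD3#2 it was 4.78-fold lower (−2.26 ± 0.232 SE, adjusted p = 2.48e-05), and again no library overlapped siCtrl. Pgam2 was at 2.14, 1.13 and 1.26 CPM in the libraries labelled siSMYD3#1 and at 1.94, 0.981 and 1.88 in siSMYD3#2, against 3.52 to 6.40 CPM in siCtrl. It fell by 1.68 (adjusted p = 0.0012) and by 1.61 (adjusted p = 0.00313) on the log2 scale. Both comparisons use the same siCtrl libraries and so are not independent of each other.

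Other calls were made with one siRNA only, and whether they differ between the siRNAs is a separate test. Mb stood at 0.399, 0.778 and 0.153 CPM in the libraries labelled siSMYD3#1, where it fell by 1.99 (adjusted p = 0.00874), and at 0.849, 0.404 and 0.588 CPM in siSMYD3#2 (−1.23, adjusted p = 0.106). In siCtrl its TRIzol library, at 0.528 CPM, lay within the range of both. Slc2a3 stood at 1.67, 1.42 and 0.307 CPM with siSMYD3#1 (−1.81, adjusted p = 0.00716) and at 1.76, 1.10 and 0.588 with siSMYD3#2 (−1.67, adjusted p = 0.019). Both were below siCtrl in the NucleoSpin libraries, and in TRIzol all 3 treatments were between 0.307 and 0.588 CPM. Ckb stood at 54.8, 34.5 and 25.0 CPM with siSMYD3#1 (−0.89, adjusted p = 0.0234) and at 34.4, 34.3 and 20.9 with siSMYD3#2, where it fell by 1.23 (adjusted p = 0.00507). Between the siRNAs 1 of the 35 genes differed, against 3.36% of all genes: Ckm was lower in the libraries labelled siSMYD3#1 than in siSMYD3#2 (−1.54 ± 0.253 SE, adjusted p = 0.000953). That order is the reverse of the order of the Smyd3 counts, which were lower in siSMYD3#2.

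The counts were 4 genes called with siSMYD3#1, all down (11.4%, with 5.85% of all genes called and 2.94% called down), and 3 with siSMYD3#2, all down (8.57%, with 3.7% of all genes called and 2.04% called down). Muscle forms made up 3 of the 4 and 2 of the 3. All 8 muscle forms tested had an estimate below 0 with siSMYD3#1 (median −0.69) and 6 of 8 with siSMYD3#2 (median −0.75), including Eno3 at −0.31 and −0.38 (adjusted p = 0.124 and 0.0618). The direction was not particular to them. With siSMYD3#1, 7 of 10 general forms and 15 of the 17 genes that serve both settings were also below 0 (medians −0.20 and −0.26). With siSMYD3#2 it was 5 of 10 and 11 of 17 (medians −0.02 and −0.05). Among the 17 genes that serve both settings the smallest adjusted p was 0.0118 with siSMYD3#1, for Pdk4 (0.80), which DESeq2 did call, and 0.226 with siSMYD3#2, for Ak1 (−0.26). Myog, the gene of the factor myogenin, moved beside Ckm, with 180.1 CPM in siCtrl at 24 h, 14.2 in the libraries labelled siSMYD3#1 and 41.65 in siSMYD3#2, and its part in the result was not tested. In these bulk libraries fewer differentiating cells and less RNA per cell cannot be told apart. At 0 h no member was called with either siRNA in edgeR's test (3 and 1 at an unadjusted p under 0.05, 0 and 0 in DESeq2). Of all genes 1.43% and 0.531% were called in edgeR. In DESeq2, run without the low-count filter, it was 1.68% and 0.666% of 31510 genes. The change of the siRNA effect from 0 h to 24 h was called for no member either (2 and 4 at an unadjusted p under 0.05, 0 and 0 in DESeq2, against 0.215% and 0.019% of all genes called). For Pgam2 that change was −1.59 with siSMYD3#1 (adjusted p = 0.182) and −1.78 with siSMYD3#2 (adjusted p = 0.108).

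These counts depended on single libraries. With the replicate block, edgeR still called Ckm and Pgam2 with siSMYD3#1 at 24 h, and no longer Mb (adjusted p = 0.0131) or Slc2a3 (0.0114). The share of all genes called under that block is not given here. Whether calls over all genes fell as well is therefore not shown. With siSMYD3#1 at 24 h 2 genes were called without the first NucleoSpin siCtrl library (3.06% of all genes called). It was also 2 without any one of the 3 libraries labelled siSMYD3#1 (3.25% to 6.45%), and 1 without the second NucleoSpin siCtrl library (2.92%). With siSMYD3#2 1 gene was called without any one of the 4 NucleoSpin libraries (1.07% to 1.61%). With no library left out 5.85% and 3.7% of all genes were called, so in most of these fits calls over all genes fell as well. Ckm with siSMYD3#1 passed under all 13 alternatives (highest adjusted p = 0.000363). The others missed the threshold under some: Ckm with siSMYD3#2 under 2 (highest adjusted p = 0.0136), Pgam2 under 3 with each siRNA (0.017 and 0.0374), Ckb with siSMYD3#2 under 3 (0.432), Slc2a3 with siSMYD3#1 under 4 (0.307) and Mb with siSMYD3#1 under 5 (0.221).

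The share of the muscle form within a family, in percent of the family's counts per kb of exon, puts the paired genes on 1 scale. Ckm made up 0.262, 0.141 and 0% of the cytosolic creatine kinase signal in siCtrl at 0 h and 31.0, 32.2 and 34.5% at 24 h, a mean of 32.6% ± 1.8 (SD, n = 3). The 24 h libraries agreed across extractions although their CPM values did not. At 24 h the share was 5, 7.01 and 7.23% in the libraries labelled siSMYD3#1 and 17.5, 14.9 and 26.4% in siSMYD3#2, so the 3 treatments did not overlap. Pgam2 made up 4.23% ± 1.37 of phosphoglycerate mutase in siCtrl at 24 h, against 0.561% ± 0.0803 at 0 h, 1.41% in the libraries labelled siSMYD3#1 and 1.32% in siSMYD3#2. Pgam1 thus remained the main mutase in all groups. Per kb, Eno3 made up about as much of the enolase signal as Eno1 and Eno2 together, with 52.2% at 0 h and 57.4% at 24 h in siCtrl. These shares depend on the exon lengths used, 5379 bases for Eno1 and 1739 for Eno3. In CPM Eno1 remained higher in siCtrl at 24 h, with a mean of 1198 against 554.2 for Eno3. With the near-identical copies added to Eno1, a choice made after the data were seen, the Eno3 share was 44.1% ± 1.72 and 49.8% ± 2.89 (SD, n = 3). The Pfkm share was 36.8% and 43.2%, and its libraries overlapped between the times. For the differences without overlap the exact permutation test, two-sided, gave p = 0.1, the smallest that 3 against 3 libraries allow.

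**Figure D3:**
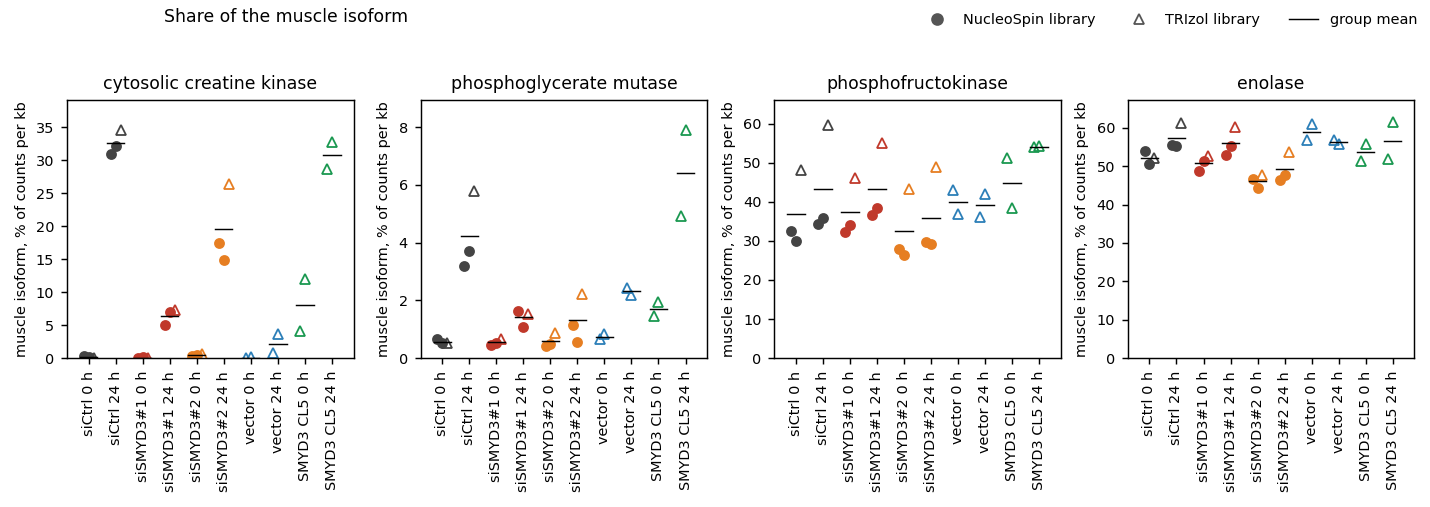
Share of the muscle form (percent of the family's counts per kb) in every library for cytosolic creatine kinase, phosphofructokinase, phosphoglycerate mutase and enolase. Filled circles are NucleoSpin and open triangles TRIzol libraries. The creatine kinase share separates siCtrl (31.0 to 34.5%), siSMYD3#2 (14.9 to 26.4%) and siSMYD3#1 (5 to 7.23%) at 24 h, and the enolase share stays near the middle of the scale.

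The time course of glycolysis differed between the extractions. Hk2, the hexokinase that muscle shares with many growing cells, had 100.1 and 103.7 CPM at 0 h and 120.1 and 118.4 at 24 h in the NucleoSpin libraries of siCtrl, but 108.7 and then 37.0 CPM in the TRIzol pair. Pfkm went from 69.3 and 76.8 to 128.1 and 131.1 CPM with NucleoSpin, and from 95.7 to 90.8 with TRIzol. Pgam1 went from 354.5 and 407.0 to 362.7 and 392.9 CPM with NucleoSpin, and from 319.3 to 135.2 with TRIzol. The same order was seen with both SMYD3 siRNAs, where Hk2 at 24 h was 52.9 and 43.6 CPM in the TRIzol libraries and 96.9 to 104.8 CPM with NucleoSpin. A term for this difference, chosen after the data were seen, was called for 16 of the 35 genes (45.7%), 15 of them lower over time with TRIzol, against 10.3% of all genes called and 5.58% called lower. The largest were Eno2 (−1.40 ± 0.274 SE on the log2 scale, adjusted p = 0.00256), Hk2 (−1.25), Pfkl (−1.12), Pfkp (−1.01) and Aldoa (−0.98), and Pdk4 alone differed the other way (0.74). Ckm (1.12, adjusted p = 0.599) and Ckb (0.68, adjusted p = 0.0664) were not called. In siCtrl 13 of the 35 genes were higher at 24 h in both NucleoSpin libraries and lower in TRIzol, as were 10 in the libraries labelled siSMYD3#1 and 7 in siSMYD3#2, against 7.94%, 9.76% and 9.44% of all genes. Each siRNA group had 1 TRIzol library, so within TRIzol there is no replicate at a given treatment and time.

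**Figure D4:**
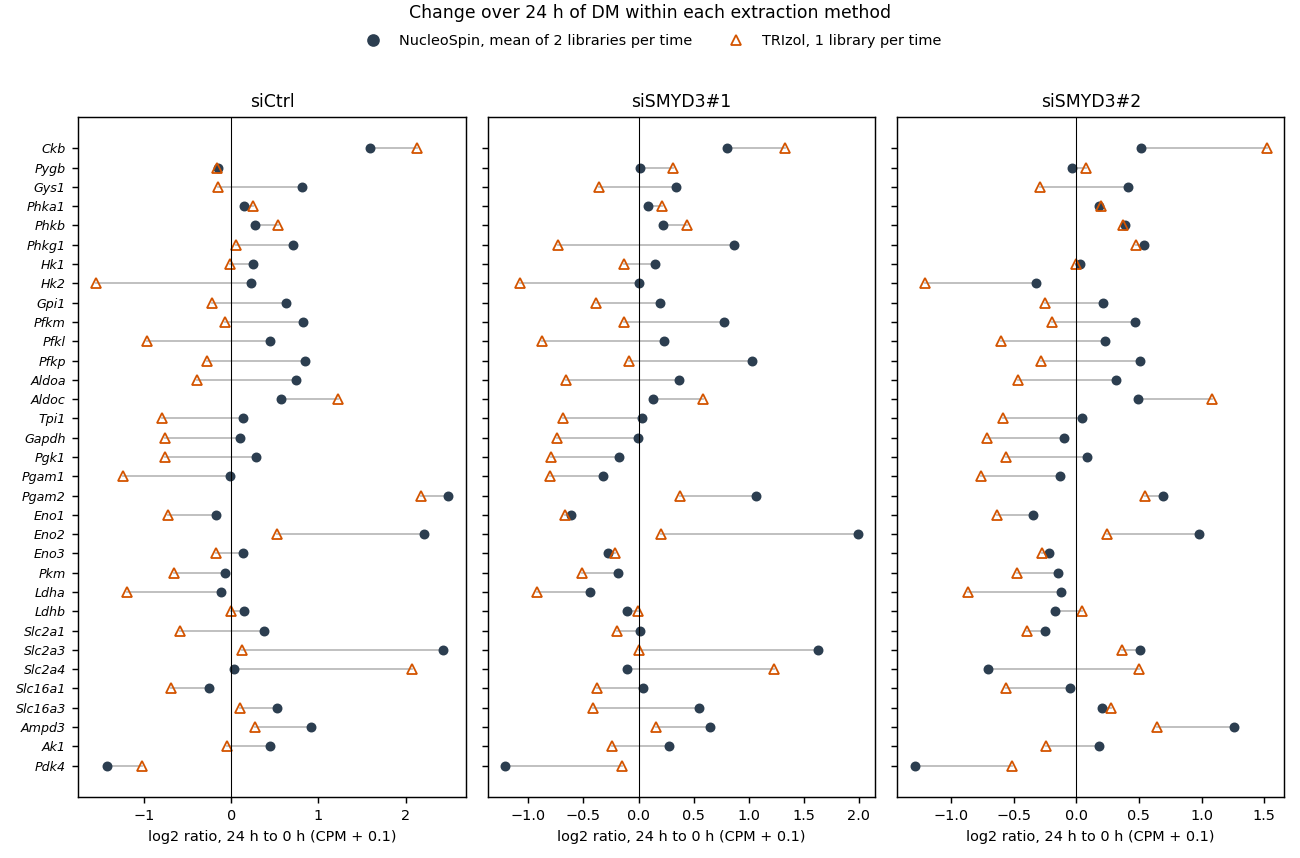
Log2 ratio of 24 h to 0 h (x axis) for 33 genes, a row for each gene, in the 3 siRNA treatments. Ckm and Mb are left out for scale. Filled circles are NucleoSpin and open triangles TRIzol libraries, joined by a line for each gene. For most genes the triangle lies to the left of the circle, for example Hk2 in siCtrl at −1.55 against 0.23.

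With the 12 NucleoSpin libraries alone the extraction no longer enters, and more genes were called. In siCtrl 14 of the 35 genes rose over time and 1 fell (33.2% of all genes called, 16.6% called up). With siSMYD3#1 at 24 h 15 genes differed from siCtrl, 14 of them lower, against 11.6% of all genes called and 6.01% called lower. Besides Ckm (−4.00), Mb (−2.08), Slc2a3 (−2.03), Pgam2 (−1.73) and Ckb (−1.09) these were the glycolytic genes Pgk1 (−0.69), Eno2 (−0.63), Aldoa (−0.58), Eno3 (−0.54), Ldha (−0.51) and Pgam1 (−0.46), the lactate exporter Slc16a3 (−0.53), glycogen synthase Gys1 (−0.42) and adenylate kinase Ak1 (−0.41). Pdk4 was higher (0.80). With siSMYD3#2 8 genes were lower and none higher in edgeR's test, against 8.38% of all genes called and 5.12% called lower: Ckm (−2.74), Slc2a3 (−2.17), Pgam2 (−1.97), Mb (−1.90), Ckb (−1.49), Eno2 (−1.23), Eno3 (−0.43) and Pfkp (−0.35). Over time 12 genes were called in the libraries labelled siSMYD3#1 and 9 in siSMYD3#2 (34.8% and 26.2% of all genes). Between the siRNAs 9 genes were called, against 9.76% of all genes. At 0 h 1 gene was called with siSMYD3#1, Pdk4 (0.58), against 3.04% of all genes, and for the change of the siSMYD3#2 effect over time 1 gene, Eno2 (−1.23), against 1.15%. Each group then has 2 libraries. At 0 h, TRIzol and NucleoSpin libraries already differed for 14 of the 35 genes (40.0%, against 43.9% of all genes). Slc16a3 was the extreme, with 59.6 and 68.5 CPM with NucleoSpin and 3.02 CPM with TRIzol in siCtrl (−3.85 on the log2 scale over the 3 treatments).

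SMYD3 CL5 was compared with its empty vector to ask how the genes stand when SMYD3 is expressed from the virus. Ckm had 0 and 0.0243 CPM with the vector at 0 h and 1.49 and 9.73 CPM in SMYD3 CL5, before any DM. At 24 h it had 0.488 and 1.44 CPM with the vector and 20.9 and 30.6 CPM in SMYD3 CL5. At 0 h the clone's libraries held 439 reads and the vector's 1, a ratio of 407 (exact 95% interval 72.7 to 16110, counting error only), and 380 of the 439 reads were in the clone's second library. The log2 fold change in the fit was 6.52 without that library and 9.26 without the first (adjusted p = 0.00971 and 0.000911 in edgeR). Mb was at 0 CPM in both vector libraries at 0 h and at 1.09 and 16.9 CPM in SMYD3 CL5, at least 107.4-fold above the floor of 3 counts per library. At 24 h it was at 0.0665 and 0.0460 CPM against 8.11 and 11.8 CPM, a ratio of 168 (76.8 to 459). Both genes were higher in each clone library than in each vector library. The adjusted p-values were 0.0261 and 0.0438 for Ckm and 0.0452 and 0.0557 for Mb at 0 h and 24 h, above the threshold used here.

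Ldhb and Slc16a3 also differed in level between clone and vector, without passing the threshold in edgeR's test. Ldhb, the heart form of lactate dehydrogenase, was at 7.82 and 7.06 CPM with the vector at 0 h and at 19.8 and 18.8 CPM in SMYD3 CL5, and at 6.03 and 6.24 against 13.2 and 22.8 CPM at 24 h (log2 fold change 1.55 at 24 h, adjusted p = 0.0383). Slc16a3 (MCT4), which exports lactate from glycolytic cells, was at 11.3 and 8.31 CPM with the vector at 24 h and at 0.728 and 1.52 CPM in SMYD3 CL5 (−3.17 ± 0.423 SE, adjusted p = 0.0102). In neither case did clone and vector libraries overlap. With 2 libraries a group this also held at both times for other members, among them Pfkm, Pfkp and Eno2. Pfkm at 24 h was at 94.4 and 120.1 CPM in SMYD3 CL5 and at 59.9 and 79.7 with the vector. In edgeR's test no member was called at 24 h (7 at an unadjusted p under 0.05, against 0.964% of all 17835 genes called) or at 0 h (9, against 1.07%). DESeq2 called 4 members at 24 h (Ckm, Mb, Ldhb and Slc16a3) and 5 at 0 h (the same and Ckb). That was against 2.59% and 3.06% of 32255 genes. DESeq2 ran without the low-count filter, so its shares are over more genes than those of edgeR. No member was called over time with the vector or in SMYD3 CL5, nor for the change of the clone's effect between the times (2, 3 and 0 at an unadjusted p under 0.05 in edgeR, 0 in each by DESeq2, with 0.0% of all genes called in each). Since SMYD3 CL5 is 1 clone, an effect of SMYD3 and a property of the clone cannot be told apart.

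The Ckm share was 28.6 and 32.8% in SMYD3 CL5 at 24 h, close to the level of siCtrl in its own experiment, and 0.785 and 3.60% with the vector. At 0 h it was 4.19 and 12% in the clone. Pgam2 made up 6.41% of phosphoglycerate mutase in SMYD3 CL5 at 24 h and 2.31% with the vector. With 2 libraries in each group the exact permutation test, two-sided, cannot go below p = 0.33.

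The clone's libraries at 0 h stood apart from each other. The second had more than 2 times the CPM of the first for 14 of the 33 genes tested and less than 0.5 times for 3. Of all genes, 11.1% were that much higher, and 31.5% differed by more than 2 times in either direction. In the other 3 groups of this experiment 1, 1 and 4 of the 33 genes were more than 2 times higher, against 0.998%, 1.09% and 3.03% of all genes. Pkm was at 1276 CPM in the first and 3353 in the second, and Gapdh at 30.3 and 139.0. Without the first library 6 of 34 genes were called at 0 h and 4 at 24 h, against 12.6% and 3.61% of all genes. Without the second 2 of 35 genes and 3 were called, against 2.56% and 3.75%.

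**Figure D5:**
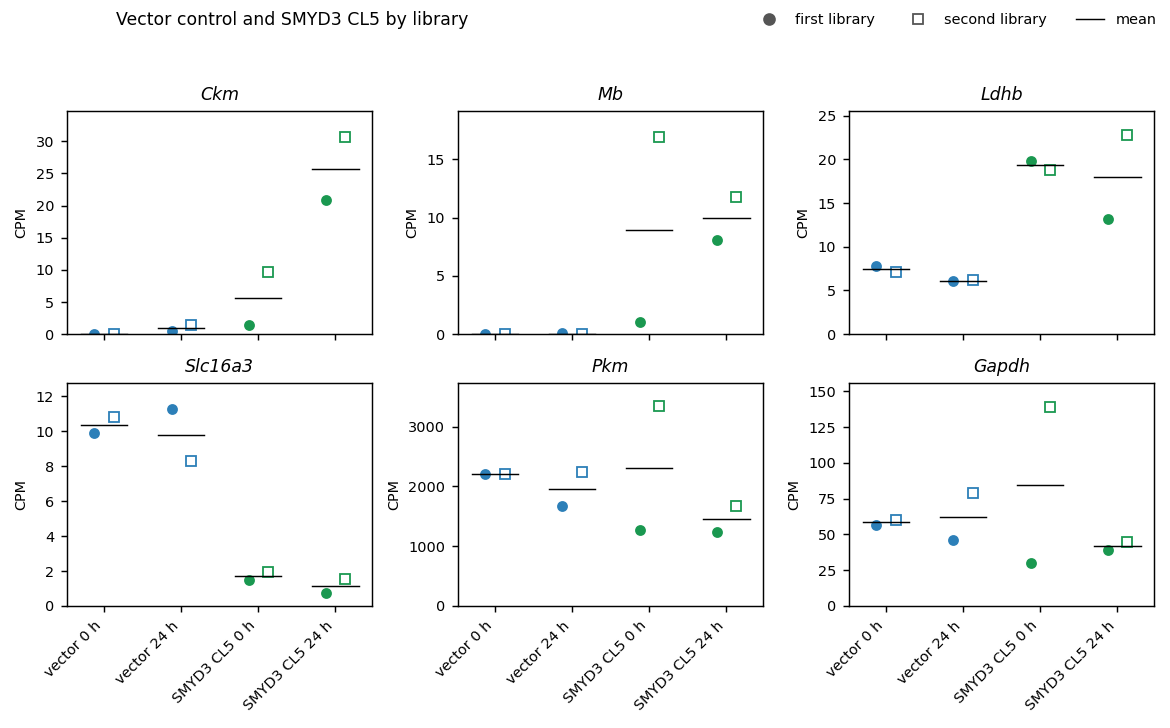
CPM of Ckm, Mb, Ldhb, Slc16a3, Pkm and Gapdh in each library of the empty vector and SMYD3 CL5 at 0 h and 24 h, 2 libraries per group. Ckm, Mb and Ldhb are higher and Slc16a3 lower in the clone at both times, and Pkm and Gapdh differ widely between the clone's libraries at 0 h.

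Gapdh and Eno1, both often used as reference genes, share sequence with copies elsewhere in the genome. Over all libraries 74461 counts were assigned to Gapdh itself and 429044 to 77 near-identical copies, 576% of its own. Eno1 had 1029311 counts and its 3 copies 408789, 39.7% of its own. The level of Gapdh given by its own counts, 118 ± 22.4 CPM in siCtrl at 0 h (SD, n = 3), is therefore uncertain. At 24 h Gapdh was at 115.5, 152.1 and 62.1 CPM in siCtrl, at 109.2, 96.2 and 74.5 in the libraries labelled siSMYD3#1 and at 131.3, 119.8 and 70.3 in siSMYD3#2, so the groups overlapped. Rplp0, a ribosomal protein gene that serves as a second reference, was at 2285, 2364 and 2191 CPM, 2250, 2198 and 2452, and 2336, 2275 and 1995 in the same groups (adjusted p = 0.943 and 0.807 against siCtrl). Over time its estimates in siCtrl, siSMYD3#1 and siSMYD3#2 were −0.25, −0.28 and −0.28 (adjusted p = 0.0337, 0.0226 and 0.0285 in edgeR, not called). In SMYD3 CL5 at 0 h Rplp0 was at 2141 and 4757 CPM. With the copies added, neither gene was called against siCtrl at 24 h, and Eno1 still fell over time in the libraries labelled siSMYD3#1 (−0.63, adjusted p = 0.00537). Exon bases are shared with another gene on the same strand by 3 of the 41 genes and on the opposite strand by 15, and the strand setting of the counting is not given in the sources used here.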

How the data were processed

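Polyadenylated RNA of 26 C2C12 libraries was made into stranded libraries (TruSeq Stranded mRNA). The counts that the authors deposited are raw reads per gene for 55341 Ensembl gene IDs, from alignment to GRCm38 with HISAT2 2.1.0 and counting with featureCounts of Subread 1.6.3 after FastQC 0.11.5, as the submitters' processing notes list them. The strand setting and the treatment of reads with several matches are not given in the sources used here. Gene names, exon lengths and shared exon bases came from GENCODE M21. The exon length of a gene takes in the exons of all its annotated transcripts.

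Genes that passed edgeR's low-count filter (15820 in the siRNA experiment, 17835 in the clone experiment) were fitted with edgeR 4.0.16 (TMM, robust quasi-likelihood test) in R 4.3.3, with 1 mean per group and, in the siRNA experiment, extraction as a term. Benjamini-Hochberg adjustment ran over all genes tested, and an adjusted p under 0.01 was called. CPM values use the TMM library sizes. The common dispersion was 0.0159 in the siRNA and 0.0903 in the clone experiment. Shares were compared with exact permutation tests. Near-identical copies were transcripts of other genes that matched over at least 300 bases at 95% identity or more (BLAST 2.17.0). Ratios of single libraries had 0.1 CPM added. Intervals and floors cover counting error only.

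The 41 genes, the wider pathway list and the marker lists were chosen with earlier results of these data known. All 41 genes were to be named. Of the wider list, those named had the 3 highest and 3 lowest log2 fold changes among the called genes with a mean of at least 100 counts over the fit in siCtrl over time, and up to 2 highest and 2 lowest against control at 24 h. Some genes that this rule picks are not reported here. Data were simulated from these libraries with the same dispersion for every gene of an experiment and with no extraction effect. Only genes with a mean above 100 counts were changed. The test found 199 of 200 genes changed by a log2 of 1 in siSMYD3#1 against siCtrl at 24 h (1 wrong call among 15288 genes). In SMYD3 CL5 against the vector it found 0 of 200 at a log2 of 1, 114 at 2 and 200 at 3 (17414, 17391 and 17373 genes). The real libraries differ by extraction and in spread from gene to gene, so these numbers do not give the power for the 41 genes. The numbers that the study gives its replicates went together with extraction: deviations from group means of same-numbered libraries correlated in all 45 siRNA pairs (r from 0.313 to 0.851, median 0.571), but not within NucleoSpin (−0.102 to 0.177). In the clone experiment r ran from −0.0973 to 0.483 over 12 pairs. Alternatives were DESeq2 1.42.0, its size factors, no low-count filter, other thresholds, no extraction term, the replicate block, NucleoSpin libraries alone, all 26 libraries in 1 fit and leaving out each library. A term for time by extraction and the addition of copies to their gene were chosen after seeing the data. No column of the files was left out.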

Additional observations from a re-analysis of the deposited data

Results flagged for a closer look

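Ckm differed between the siRNAs at 24 h: its log2 level was −1.537 in the libraries labelled siSMYD3#1 relative to siSMYD3#2, by a test of that difference (edgeR, adjusted p = 0.000953), while Smyd3 counts were lower in siSMYD3#2.

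The change from 0 h to 24 h differed between TRIzol and NucleoSpin libraries for 16 genes, by a test of that difference in edgeR. On the log2 scale, TRIzol minus NucleoSpin, the upper glycolytic genes were at −1.246 (Hk2), −0.6285 (Gpi1), −0.8264 (Pfkm), −1.116 (Pfkl), −1.008 (Pfkp), −0.9818 (Aldoa) and −0.7579 (Tpi1). Those of lower glycolysis were at −0.761 (Pgk1), −0.7651 (Pgam1), −1.395 (Eno2) and −0.753 (Ldha). Gys1 was at −0.7865, Slc16a1 at −0.4534, Ampd3 at −0.5863 and Ak1 at −0.4802, and Pdk4 differed in the other direction, at 0.7403. TRIzol libraries came from an earlier passage, and the 2 cannot be told apart.

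Reads fell on features outside the 41 genes that are near-identical to 2 of them. Over all libraries the copies of Gapdh took 429044 counts and those of Eno1 408789.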

How the results depend on the processing

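Of 29 differences called for single genes, none changed direction under the alternatives run, 28 passed with DESeq2, 29 with its size factors, 25 with the replicate block, 26 with NucleoSpin libraries alone and 15 under every omission of a library, but 8 without the extraction term and 12 with all 26 libraries in 1 fit. The cause of these shifts was not tested.

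Numbers of genes called moved as follows. In this and the next paragraph, counts without the share of all genes called do not show whether these genes moved more than all genes. Without the low-count filter 17 genes were called over time in siCtrl, 15 in the libraries labelled siSMYD3#1, 9 in siSMYD3#2, 2 with the vector and 1 in SMYD3 CL5, and at 24 h 9 with siSMYD3#1, 5 with siSMYD3#2, 8 between the siRNAs and 4 in SMYD3 CL5 (5 at 0 h), with 3 for the change of the siSMYD3#2 effect. Without the extraction term the numbers were 4, 1 and 2 over time, 1 and 0 at 24 h and 0 between the siRNAs. With NucleoSpin libraries alone they were 12 and 9 over time with siSMYD3#1 and siSMYD3#2, 15 and 8 at 24 h, 1 with siSMYD3#1 at 0 h, 9 between the siRNAs and 1 for the change of the siSMYD3#2 effect. With all 26 libraries they were 2 and 2 over time, 1 and 0 at 24 h, 0 between the siRNAs, and 4 and 5 in SMYD3 CL5 at 24 h and 0 h. With the time by extraction term they were 10 and 8 over time (33.8% and 28.2% of all genes called). With that term 7 were called with siSMYD3#1 at 24 h (10.2%) and 3 between the siRNAs (7.46%). An adjusted p under 0.05 gave 12 over time with siSMYD3#1, and 3 and 4 in SMYD3 CL5. A doubling or halving left 3 over time in siSMYD3#2. DESeq2 gave 4 and 5 in SMYD3 CL5. The replicate block gave 2 with siSMYD3#1 at 24 h, and 2 and 1 in SMYD3 CL5 at 24 h and 0 h, and the paired numbers moved no other count by over 1.5 times.

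Leaving out 1 library gave 2 to 10 over time in the libraries labelled siSMYD3#1 (10 without the siCtrl TRIzol library at 24 h, 2 or 3 without a NucleoSpin library of its own), 1 to 5 with siSMYD3#1 and 1 to 3 with siSMYD3#2 at 24 h, 0 to 4 and 0 to 6 in SMYD3 CL5 at 24 h and 0 h, and 0 to 4 over time in SMYD3 CL5, the highest each time without its first 0 h library. Differences in muscle-form share with libraries left out crossed 0 for phosphofructokinase in siCtrl over time (−1.71 to 12.1 percentage points), siSMYD3#1 (−5.71 to 8.26, and −0.896 with raw counts) and siSMYD3#2 (−13.7 to 0.913) against siCtrl and SMYD3 CL5 at 0 h (−1.57 to 11.1), for enolase with siSMYD3#1 (−3.31 to 0.628) and in SMYD3 CL5 at 24 h (−4.34 to 5.13), and for phosphoglycerate mutase between the siRNAs (−0.281 to 0.545). Depth limits Ckm and Mb at 0 h, which rest on few reads. The clone experiment had 2 libraries per group and a common dispersion of 0.0903, against 0.0159 in the siRNA experiment.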

Other observations

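A wider list of 65 genes of glycolysis, glycogen, pyruvate use, creatine and the energy sensor AMPK, of which 50 were tested in the siRNA experiment, moved in both directions over time in siCtrl, with 12 that rose and 10 that fell (44.0%, with 29.4% of all genes called). Pdk2, a kinase of pyruvate dehydrogenase like Pdk4, rose from a mean of 3.77 to 14.8 CPM (log2 fold change 1.96, adjusted p = 4.4e-07), while Pdk4 itself fell. Gamt, the enzyme that makes creatine, rose from 29.9 to 56.1 CPM (0.90, adjusted p = 2.32e-05), and Prkag2, a regulatory subunit of AMPK, from 13.3 to 20.7 CPM (0.63, adjusted p = 0.000179). Tigar, a bisphosphatase that lowers glycolytic flux, fell from 19.2 to 12.3 CPM (−0.65), and the mitochondrial glycerol phosphate dehydrogenase Gpd2 from 181 to 106 CPM (−0.82).

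Against siCtrl at 24 h, 7 of the 50 fell and none rose in edgeR's test in the libraries labelled siSMYD3#1 (14.0%, with 5.85% of all genes called). Among them was the glycogen branching enzyme Gbe1, at 15.2 against 24.0 CPM (−0.62, adjusted p = 0.00943). Gbe1 was not called in siSMYD3#2 (−0.51, adjusted p = 0.0381). In siSMYD3#2 2 rose and 4 fell (12%, with 3.7% of all genes called). The AMPK catalytic subunit Prkaa1 was at 110 against 78.3 CPM (0.49, adjusted p = 0.000649), Pdk3 at 40.7 against 30.6 CPM (0.41, adjusted p = 0.00571), Gamt at 26.1 against 56.1 CPM (−1.10, adjusted p = 8.9e-05) and Prkag2 at 13.9 against 20.7 CPM (−0.53, adjusted p = 0.00552). None of these was called in the libraries labelled siSMYD3#1. Their estimates there were 0.01, 0.01, −0.37 and −0.18 in the same order (adjusted p = 0.949, 0.956, 0.0793 and 0.362). No gene of the list was called in SMYD3 CL5 against the vector in edgeR's test.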
